A study of Mus musculus with 8 samples.

Results

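The glutathione, peroxiredoxin and thioredoxin genes were described in mouse leukemic cells that had lost Ikzf2 and in cells that kept it. Members were all gene symbols that begin with Gsta, Gstm, Gsto, Gstp, Gstk, Gstt, Gstz, Gpx, Prdx, Txn, Sod or Glrx, without pseudogene symbols. A further 9 genes were added by symbol, namely Gclc, Gclm, Gsr, Gss, Cat, Nqo1, Hmox1, Nfe2l2 and Keap1. This rule used no measured value and gave 70 of the 24421 gene symbols in each file. The KO group held 2 RNA-seq libraries of Ikzf2Δ/Δ cells and the WT group 2 of Ikzf2f/f cells, in which both alleles are floxed. Both groups were C57BL/6 marrow cells transformed by the fusion oncogene MLL-AF9, frozen, thawed and sorted for high c-KIT, the stem cell factor receptor. The sources used here do not give the agent that deleted Ikzf2, the deleted exons, the age of the mice or any pooling of mice. The labels do not say whether replicates came from separate mice, so each p-value reflects only how these libraries varied. The product of Ikzf2 is Helios, an Ikaros family protein that binds DNA through zinc fingers.

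Cells remove hydrogen peroxide and lipid peroxides by passing electrons from NADPH along a pair of parallel chains. In the glutathione chain, glutathione reductase keeps the tripeptide glutathione reduced, and glutathione peroxidases, transferases and glutaredoxins spend it. In the thioredoxin chain, thioredoxin reductases, which are selenoproteins, reduce thioredoxins, and these recharge the peroxiredoxins. The transcription factor NRF2, encoded by Nfe2l2 and held in check by KEAP1, induces many of these genes. In myeloid cells the same enzymes work beside the oxidant burst of the phagocytes.

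Gene counts came to 16006081 and 18017545 in KO replicates 1 and 2 and to 19286090 and 18711837 in WT replicates 1 and 2. The targeted gene Ikzf2 had 10.9 and 26.5 CPM in the KO libraries, against 283 and 271 CPM in the WT libraries (CPM, the count over the TMM-scaled library total). Its log2 fold change was -3.89 (SE 0.48, adjusted p = 0.332 by edgeR and 1.13e-13 by DESeq2). Across all genes 0 of 12623 genes passed edgeR's quasi-likelihood test (adjusted p threshold 0.05), while 968 (7.67%) had an unadjusted p under 0.05. DESeq2 called 352 (2.62%) of the 13422 genes to which it gave an adjusted p. KO replicate 1 stood apart in Xist, at 833 CPM there, at 0.352 CPM in KO replicate 2 and at 0.600 and 0.478 CPM in the WT libraries. Ddx3y, on the Y chromosome, showed the reverse, with 0.0619 and 70.1 CPM in KO replicates 1 and 2, against 109 and 102 CPM in WT. The KO libraries thus differed from each other in sex markers and do not look like cells of the same single mouse. Both WT libraries resembled KO replicate 2, so these markers were not balanced between the genotypes. The part of this in the levels and the spread of the members was not tested. The 8 listed markers of leukemic progenitors were present throughout. Kit, on whose product the cells were sorted, had 236 and 376 CPM in KO and 216 and 330 CPM in WT. Hoxa9, Hoxa10 and Ptprc stood lower in both KO libraries, 3 of the 8 (19.1% of all genes), and 0 stood higher. Hoxa9 had 312.5 and 279.6 CPM in KO, against 317.8 and 333.6 CPM in WT. Flt3 overlapped, at 69.1 and 285.8 CPM in KO and 248.3 and 153 CPM in WT. The list of neutrophil markers does not tell stages of maturation apart. Its 11 markers that were counted summed to 21360 and 28790 CPM in KO, against 1173 and 5718 CPM in WT. DESeq2 called 5 of them as higher (2.62% of all genes called). Both KO libraries stood above both WT libraries in 8 of the 11 (18.1% of all genes), while Retnlg, Mmp8 and Mmp9 overlapped. Chil3 alone had 8449 and 10380 CPM in KO, against 322 and 1766 CPM in WT. The 12 macrophage markers summed to 220 and 189 CPM in KO and 86.7 and 148 CPM in WT, with Spic and Timd4 at 0. Of the 4 that were tested, 2 stood higher in both KO libraries (18.1% of all genes). DESeq2 called 1 of them, Vcam1, as higher, at 136 and 87.8 CPM in KO, against 9.60 and 21.6 CPM in WT (adjusted p = 1.82e-06). Adgre1, which made up most of the WT sums, overlapped, at 65.0 and 97.0 CPM in KO and 75.5 and 122 CPM in WT. The erythroid list summed to 4.08 and 52.9 CPM in KO, against 2.85 and 2.55 CPM in WT. Its 6 globin genes had 0 counts, while Car2 had 12 and 858 counts in KO, against 1 and 1 in WT, and was called by DESeq2 (adjusted p = 1.76e-05).

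Of the 70 members, 53 passed the filter on low counts and were tested, and 0 changed by edgeR (0% of all genes called) or by DESeq2 (2.62% called). The lowest adjusted p among them was 0.594 by edgeR and 0.304 by DESeq2. At an unadjusted p under 0.05 edgeR held 3 of the 53 (7.67% of all genes). These were Txndc5, Prdx5 and Gstm5. Both KO libraries stood below both WT libraries for 16 members, 30.2%, against 19.1% of all genes tested. The reverse order held for 6 members, 11.3%, against 18.1% of all genes. The fold change lay below 0 in 33 of 53 (62.3%), against 50.5% of all genes, and its median was -0.16, against -0.0043 over all genes tested. That median was -0.031 without KO replicate 2 and -0.27 without KO replicate 1. With a library left out, DESeq2 called Nqo1 (adjusted p = 0.0381) and Txndc5 (0.00878) without KO replicate 2 and Gstm1 (0.0332) without WT replicate 1. Over all genes those fits called 384 and 162, and DESeq2 called 0 members without KO replicate 1 or without WT replicate 2, where it called 178 and 390 genes.

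**Figure D1:**
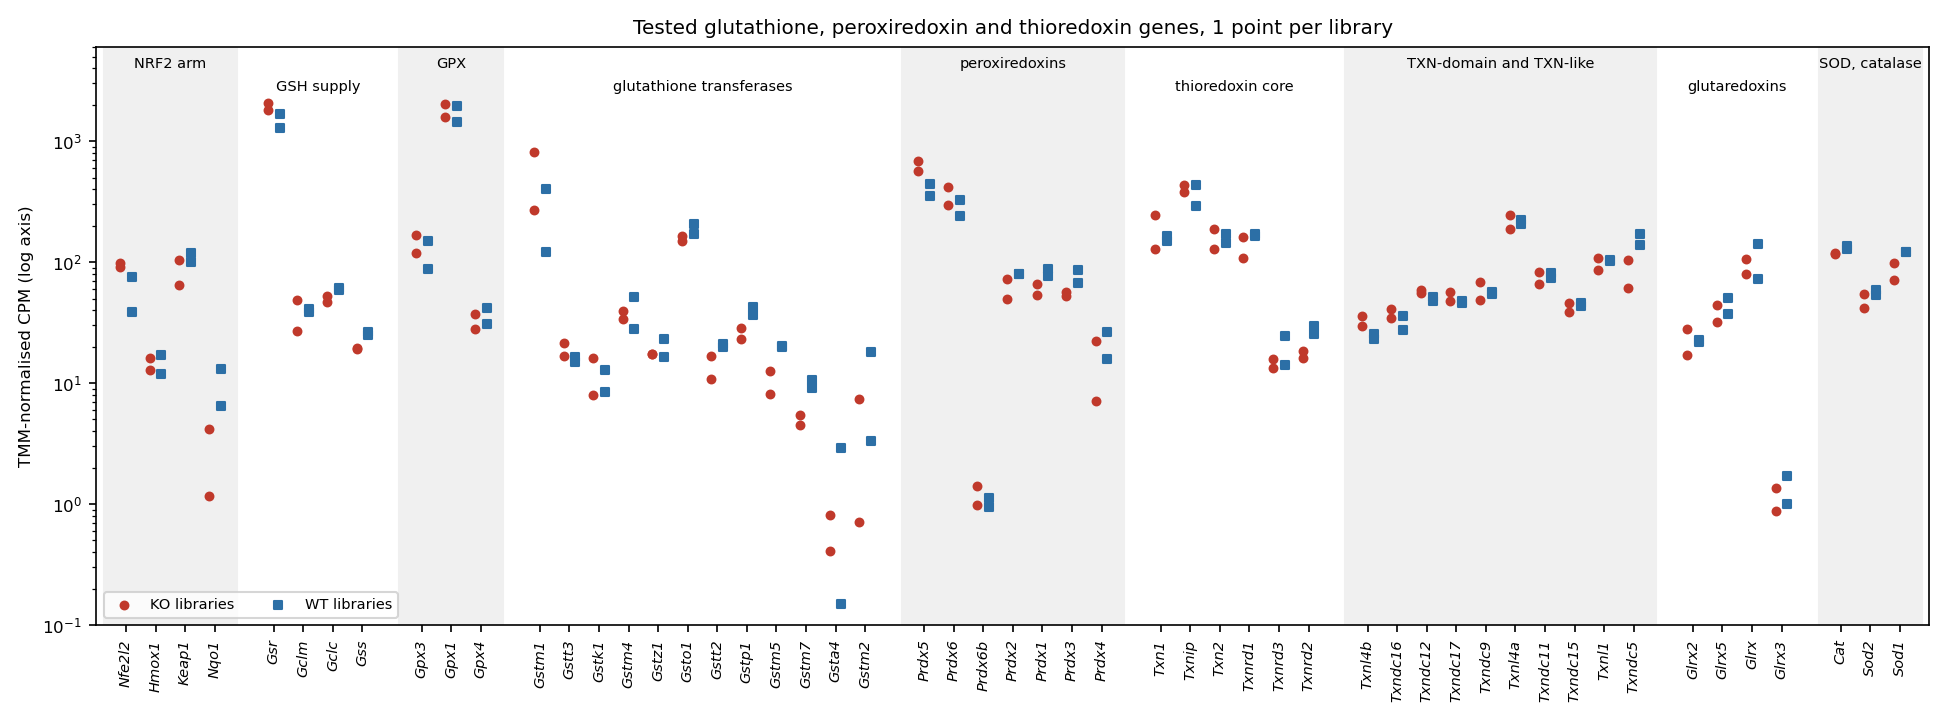
Level of each tested member in each library, as TMM-normalised CPM on a log axis, grouped by role, with KO libraries as circles on the left and WT libraries as squares on the right of each gene. Within a gene the groups mostly lie close together or overlap, and Nqo1, at 1.18 and 4.17 CPM in KO and 12.9 and 6.47 CPM in WT, stands among the wider gaps. CPM is not scaled by transcript length, so heights should not be compared between genes.

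The remaining 17 members were not tested. Of these, 8 had no count in any library: Gpx2, Gpx5, Gpx6, Gpx7, Gpx8, Gsta2, Txndc2 and Txndc8. Among the other 9, Gsta3 had 5 and 3 counts in KO and 6 and 9 counts in WT, and Gsto2 had 5 and 3 counts in KO and 10 and 4 counts in WT. Sod3, the secreted superoxide dismutase, had 4 counts in KO replicate 2 and 0 in the other libraries. Gsta1, Gstm3, Gstm6, Gstp2, Gstt1 and Gstt4 had between 0 and 3 counts in each library. At this depth 3 counts equal 0.186 and 0.176 CPM in KO and 0.150 and 0.159 CPM in WT. A count of 0 does not exclude levels below that limit. That limit covers counting error only. Of the alpha class transferases only Gsta4 was tested, with 13 and 7 counts in KO and 3 and 55 counts in WT, which overlapped.

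Among the regulators and their targets, Nfe2l2 and Nqo1 stood apart between the groups in opposite directions, and neither passed the test. Nfe2l2 (chromosome 2, 75675513 to 75704663, GRCm38.p6), which encodes NRF2, had 98.1 and 91.1 CPM in KO, against 38.4 and 74.9 CPM in WT. Both KO libraries lay above both WT libraries, with most of the gap to WT replicate 1. The log2 fold change was 0.74 (SE 0.35, edgeR adjusted p = 0.726) and ran from 0.34 without WT replicate 1 to 1.31 without WT replicate 2. Nqo1 (chromosome 8, 107388225 to 107403205), a quinone reductase widely used as a readout of NRF2, had 1.18 and 4.17 CPM in KO, against 12.9 and 6.47 CPM in WT. These came from 19 and 71 counts in KO and 259 and 122 counts in WT, so both KO libraries were lower and the libraries of each genotype also differed. Its log2 fold change was -1.86 (SE 0.77, 95% interval -3.80 to 0.081, edgeR adjusted p = 0.664), a 3.63-fold lower mean level in the fit. It was -3.04 without KO replicate 2 and -1.22 without KO replicate 1. Keap1, the adaptor that targets NRF2 for degradation, had 65.1 and 103 CPM in KO and 100 and 118 CPM in WT. Those groups overlapped (log2 fold change -0.38, SE 0.28). Hmox1, heme oxygenase 1 and another classical NRF2 target, had 12.9 and 16.1 CPM in KO and 11.9 and 17.1 CPM in WT. Its log2 fold change was 0.0014 (SE 0.36), with an interval from -0.91 to 0.91, and was -0.064 with library sizes alone as scaling.

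The promoters of 4 members are shown because NRF2 is known to act through the antioxidant response element, and they include its own gene. The 4 were picked by name and do not stand for the members as a whole. Txndc5 and Prdx5, the members of smallest edgeR p, are not among them. Each window runs from 250 bases before to 50 bases after a RefSeq start site in GRCm38.p6, 5′ to 3′ on the gene's strand. Capitals mark the core TGACNNNGC, read on both strands.
Nfe2l2, chr2:75704614-75704913, minus strand: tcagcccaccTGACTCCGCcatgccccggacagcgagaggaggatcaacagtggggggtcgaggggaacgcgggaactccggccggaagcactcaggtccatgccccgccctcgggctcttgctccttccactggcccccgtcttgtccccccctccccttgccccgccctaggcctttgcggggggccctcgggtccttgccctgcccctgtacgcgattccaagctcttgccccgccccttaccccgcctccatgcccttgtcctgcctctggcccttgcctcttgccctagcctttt
Nqo1, chr8:107403156-107403455, minus strand: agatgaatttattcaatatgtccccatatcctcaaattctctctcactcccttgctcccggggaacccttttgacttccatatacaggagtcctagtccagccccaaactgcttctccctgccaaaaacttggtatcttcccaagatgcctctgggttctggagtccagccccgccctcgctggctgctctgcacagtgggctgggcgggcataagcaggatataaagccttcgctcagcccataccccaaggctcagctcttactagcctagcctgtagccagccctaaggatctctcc
Prdx1, chr4:116685349-116685648, plus strand: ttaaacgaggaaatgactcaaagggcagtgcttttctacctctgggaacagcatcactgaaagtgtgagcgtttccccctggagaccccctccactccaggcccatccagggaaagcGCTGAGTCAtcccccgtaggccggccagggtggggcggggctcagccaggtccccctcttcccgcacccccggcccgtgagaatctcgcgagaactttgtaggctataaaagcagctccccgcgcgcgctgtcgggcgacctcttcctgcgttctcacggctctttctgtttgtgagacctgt
Gstm5, chr3:107895604-107895903, plus strand: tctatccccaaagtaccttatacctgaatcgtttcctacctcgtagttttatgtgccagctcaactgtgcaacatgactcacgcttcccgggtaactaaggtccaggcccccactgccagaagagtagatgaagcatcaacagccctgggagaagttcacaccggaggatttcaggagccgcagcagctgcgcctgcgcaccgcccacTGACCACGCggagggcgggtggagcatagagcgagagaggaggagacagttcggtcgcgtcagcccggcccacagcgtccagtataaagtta
Nfe2l2, Prdx1 and Gstm5 held 1 match each, at -240, -133 and -42 from the start site, and Nqo1 held none in this window. The match in Prdx1, GCTGAGTCA, overlaps the AP-1 motif TGANTCA. Windows were found for 60 of the 70 members and 44 of the 53 tested, taking the first listed for each gene. Among the tested members 6 of 44 windows (13.6%) held TGACNNNGC, namely those of Gclm, Gstm5, Nfe2l2, Prdx1, Sod1 and Txndc11, against 1464 of 9599 (15.3%) over all genes tested. The letters TGGGAA, a core bound by Ikaros family factors, read on both strands, were in 13 of the 44 windows (29.5%), against 2214 of 9599 (23.1%). The 13 were Nqo1, Gss, Gpx3, Gstm2, Prdx1, Prdx4, Sod2, Txnrd2, Txndc5, Txndc9, Txndc12, Txndc15 and Txndc16, which include genes with fold changes on either side of 0. TGANTCA was in 4 of the 44 (9.09%), against 491 of 9599 (5.12%).

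In glutathione synthesis and recycling, Gclc and Gss stood slightly lower and Gsr slightly higher in both KO libraries and Gclm overlapped, with 0 of 4 members past the test. Gclc, the catalytic subunit of glutamate-cysteine ligase, which makes the first and rate-limiting step, had 46.8 and 52.1 CPM in KO, against 61.0 and 58.6 CPM in WT. Gss, glutathione synthetase, had 19.3 and 19.7 CPM in KO, against 26.7 and 24.8 CPM in WT. For both genes the KO libraries lay below the WT libraries, by small steps (log2 fold changes -0.27, SE 0.20, and -0.40, SE 0.26). Gclm, the modifier subunit of the ligase, had 26.8 and 48.7 CPM in KO and 39.0 and 41.3 CPM in WT, so its KO libraries lay on either side of WT. Gsr, glutathione reductase (chromosome 8, 33653238 to 33698162), had 2062 and 1811 CPM in KO, against 1279 and 1691 CPM in WT. Both KO libraries were higher, KO replicate 2 by a narrow margin over WT replicate 2. The log2 fold change of Gsr was 0.38 (SE 0.26, edgeR adjusted p = 0.844), 0.61 without WT replicate 2 and 0.20 without WT replicate 1.

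Of the 8 glutathione peroxidase genes, 3 were tested, and in each the groups overlapped. Gpx1, the general cytosolic and mitochondrial selenoperoxidase, had 2021 and 1587 CPM in KO and 1433 and 1946 CPM in WT (log2 fold change 0.095, SE 0.28). The interval of that difference ran from -0.60 to 0.79, and its sign turned without KO replicate 1 (-0.088) and without WT replicate 1 (-0.11). Gpx4, which reduces lipid peroxides in membranes and restrains ferroptosis, had 37.1 and 28.2 CPM in KO and 42.0 and 30.7 CPM in WT. Its interval ran from -0.87 to 0.56. Gpx3, the secreted peroxidase, had 167 and 118 CPM in KO and 88.3 and 148 CPM in WT.

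The glutathione transferases attach glutathione to electrophiles, and 12 of their 21 genes were tested, with 0 past the test. Both KO libraries lay below both WT libraries in 5 of the 12 (Gstm5, Gstm7, Gstp1, Gstt2 and Gsto1; 19.1% of all genes) and above them in 1 (Gstt3; 18.1% of all genes), and the median log2 fold change was -0.41. Gstm5 (chromosome 3, 107895854 to 107898685), of the mu class, had 12.5 and 8.04 CPM in KO, against 20.2 and 19.8 CPM in WT. The WT libraries were close to each other and clearly above both KO libraries, with a log2 fold change of -0.96 (SE 0.36, edgeR adjusted p = 0.616). Gstm7, which neighbours it on chromosome 3, had 5.44 and 4.52 CPM in KO, against 10.5 and 9.18 CPM in WT (log2 fold change -0.98, SE 0.42). Gstp1, the pi class transferase, had 23.1 and 28.8 CPM in KO, against 42.2 and 36.2 CPM in WT (log2 fold change -0.59, SE 0.25). Its near-identical neighbour Gstp2 held 0 counts in KO and 3 and 1 counts in WT, and reads shared by such copies may be lost or split. Gstt2, of the theta class, had 16.9 and 10.7 CPM in KO, against 19.9 and 21.1 CPM in WT. Gsto1, of the omega class, which also reduces dehydroascorbate, had 165 and 150 CPM in KO, against 172 and 205 CPM in WT.

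In the mu class cluster on chromosome 3, Gstm1 and Gstm2 varied more between the replicates of a genotype than between the genotypes. Gstm1 (chromosome 3, 108012250 to 108017973) had 808 and 268 CPM in KO and 404 and 122 CPM in WT. The library numbered 1 was the higher of its genotype in both groups, and the groups overlapped. On the log2(CPM + 1) scale replicate 1 exceeded replicate 2 by 1.59 in KO and by 1.72 in WT, while KO exceeded WT by 0.999 within replicate number 1 and by 1.13 within replicate number 2. Its log2 fold change of 1.03 (SE 0.76, edgeR adjusted p = 0.859) ran from 0.031 without KO replicate 1 to 2.14 without WT replicate 1. Gstm2 had 7.42 and 0.704 CPM in KO and 18.0 and 3.34 CPM in WT, again highest in the libraries numbered 1, with KO lower within each number. Gstm4 had 39.2 and 33.8 CPM in KO and 51.8 and 28.2 CPM in WT. The 10 mast cell and basophil markers summed to 141 and 48.7 CPM in KO and 68.2 and 38.2 CPM in WT. As a sum they were thus highest in the libraries numbered 1, but unlike Gstm2 they were higher in KO within each number. Mcpt8 (86.4 and 23.2 CPM in KO, 48.5 and 22.9 CPM in WT) and Hdc made up most of the sum. Cpa3 had the opposite order of replicates, with 7.36 and 8.16 CPM in KO and 4.60 and 8.49 CPM in WT. Ms4a2 was nearly level in KO (4.27 and 4.23 CPM) and rose from 1.45 to 2.44 CPM in WT. Any part of the 10 markers in the Gstm1 and Gstm2 values was not tested. Mu class genes resemble each other in sequence, so their counts are uncertain.

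**Figure D2:**
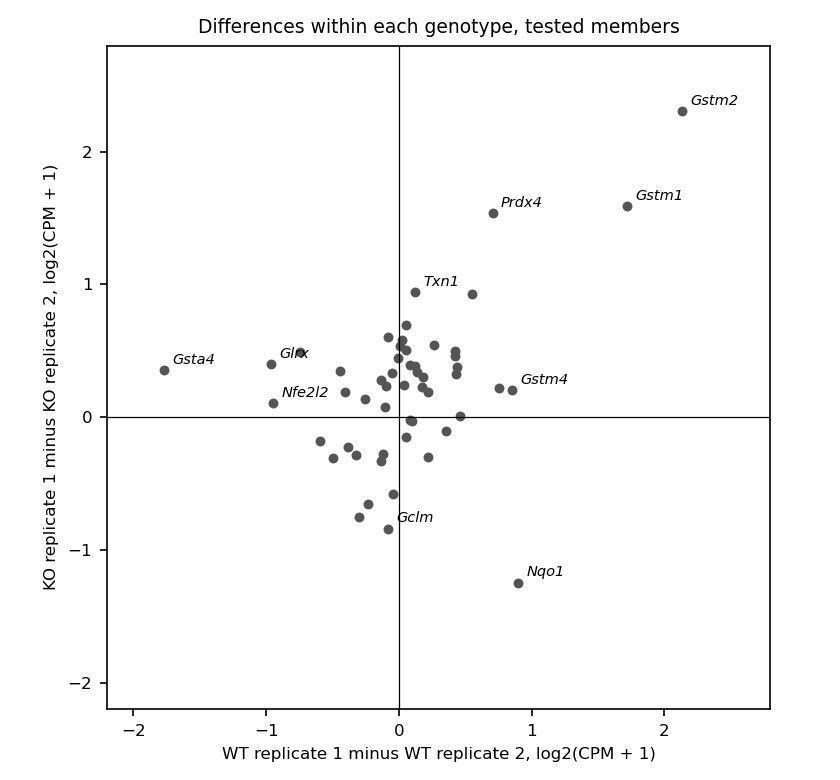
Difference between replicate 1 and replicate 2 in log2(CPM + 1) for each tested member, with WT on the horizontal and KO on the vertical axis. Gstm2, Gstm1 and Prdx4 lie far into the upper right, higher in replicate 1 of both genotypes, while Nqo1 lies at the lower right, where the order of the replicates differed between the genotypes.

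The peroxiredoxins reduce peroxides through a reactive cysteine, and all 7 genes were tested, with 0 past the test. Prdx5 (chromosome 19, 6906697 to 6910106), found in mitochondria, peroxisomes and cytosol, had 565 and 689 CPM in KO, against 354 and 442 CPM in WT. Both KO libraries lay above both WT libraries, and the log2 fold change of 0.65 (SE 0.24, 95% interval 0.040 to 1.27, edgeR adjusted p = 0.614) stayed between 0.50 and 0.84 with a library left out. Prdx1 and Prdx2, of the cytosol, and Prdx3, of mitochondria, stood the other way. Prdx1 had 65.8 and 53.2 CPM in KO, against 87.6 and 77.0 CPM in WT (log2 fold change -0.47, SE 0.22). Prdx3 had 52.3 and 56.2 CPM in KO, against 85.3 and 66.5 CPM in WT (log2 fold change -0.48, SE 0.22). Prdx2 had 72.6 and 49.7 CPM in KO, against 79.6 and 79.2 CPM in WT. In each of Prdx1, Prdx2 and Prdx3 both KO libraries were lower than both WT libraries, at adjusted p of 0.722, 0.842 and 0.712 by edgeR. Prdx6, which uses glutathione rather than thioredoxin, had 419 and 297 CPM in KO and 325 and 242 CPM in WT, and these groups overlapped. The endoplasmic reticulum form Prdx4, an X-linked gene, had 22.3 and 7.05 CPM in KO and 26.5 and 15.8 CPM in WT. KO replicate 1 is also the library with Xist at 833 CPM, and the part of this in Prdx4 was not tested. Prdx6b, a copy of Prdx6, had 16 and 24 counts in KO and 19 and 21 counts in WT.

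In the core of the thioredoxin system Txnrd1 and Txnrd2 stood lower in both KO libraries, and Txnrd3, the thioredoxins and Txnip overlapped between the groups, with 0 of 6 genes past the test. Txnrd2 (chromosome 16, 18426417 to 18479073), the mitochondrial thioredoxin reductase, had 18.5 and 16.1 CPM in KO, against 29.7 and 25.4 CPM in WT. Replicates were close and the groups apart, with a log2 fold change of -0.67 (SE 0.27, 95% interval -1.36 to 0.016, edgeR adjusted p = 0.661) that ran from -0.77 to -0.55 with a library left out. Txnrd1, the cytosolic reductase and a known NRF2 target, had 107 and 161 CPM in KO, against 164 and 169 CPM in WT. The gap came mainly from KO replicate 1, and the log2 fold change of -0.31 (SE 0.26) was -0.049 without it. Txnrd3, the third reductase, had 15.7 and 13.4 CPM in KO and 24.5 and 14.1 CPM in WT. Txn1, cytosolic thioredoxin, had 246 and 128 CPM in KO and 163 and 149 CPM in WT, so the KO libraries lay on either side of WT. Txn2, its mitochondrial counterpart, had 187 and 128 CPM in KO and 172 and 143 CPM in WT (interval of the log2 fold change -0.67 to 0.66). Txnip, the thioredoxin-interacting protein that also limits glucose uptake, had 383 and 433 CPM in KO and 289 and 436 CPM in WT. WT replicate 1 was the low library there, and the groups overlapped.

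Among the thioredoxin-domain and thioredoxin-like genes, Txndc5 was lower in both KO libraries and most of the others differed little, with 0 of 10 tested genes past the test. Txndc5 (chromosome 13, 38500266 to 38528824), a protein disulfide isomerase of the endoplasmic reticulum, had 61.2 and 104 CPM in KO, against 138 and 169 CPM in WT. The groups did not overlap, and the log2 fold change was -0.89 (SE 0.31, 95% interval -1.68 to -0.11, edgeR adjusted p = 0.594, the lowest of the members). It was -0.56 without KO replicate 1 and -1.33 without KO replicate 2. Txnl4b, a relative of a U5 spliceosome protein, had 36.1 and 29.6 CPM in KO, against 23.1 and 25.4 CPM in WT (log2 fold change 0.44, SE 0.25). Txndc12, another protein of the endoplasmic reticulum, had 58.5 and 55.5 CPM in KO, against 48.0 and 51.7 CPM in WT, a log2 fold change of 0.19 (SE 0.20). The other 7 tested genes overlapped between the groups and had log2 fold changes between -0.095 and 0.25. One of them is Txnl4a, itself a U5 spliceosome protein, at 247 and 188 CPM in KO and 221 and 208 CPM in WT, a log2 fold change of 0.020 that was -0.039 with library sizes alone as scaling.

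The 4 glutaredoxins, which reverse the bonding of glutathione to proteins or carry iron-sulfur clusters, overlapped between the groups in each case. Glrx, the cytosolic dithiol form, had 106 and 80.3 CPM in KO and 72.0 and 142 CPM in WT. Here the WT libraries lay outside the KO libraries on both sides. Glrx5, which serves mitochondrial iron-sulfur cluster assembly, had 44.5 and 32.2 CPM in KO and 50.4 and 37.4 CPM in WT. Glrx2 had 28.1 and 17.0 CPM in KO and 22.6 and 21.7 CPM in WT, and Glrx3 had 22 and 15 counts in KO and 34 and 19 counts in WT.

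Superoxide dismutases turn superoxide into hydrogen peroxide, which catalase then splits, and the 3 tested genes of this group had fold changes below 0, with 0 past the test. Sod1, the copper-zinc enzyme of the cytosol, had 97.7 and 71.4 CPM in KO, against 120 and 121 CPM in WT. The WT libraries agreed closely and both KO libraries lay below them (log2 fold change -0.51, SE 0.23, edgeR adjusted p = 0.692). Cat, the catalase gene, had 117 and 119 CPM in KO, against 137 and 128 CPM in WT, a log2 fold change of -0.17 (SE 0.18) with an interval from -0.64 to 0.29. Sod2, the manganese enzyme of mitochondria, had 54.3 and 41.4 CPM in KO and 58.8 and 53.9 CPM in WT, which overlapped by a small margin.

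**Figure D3:**
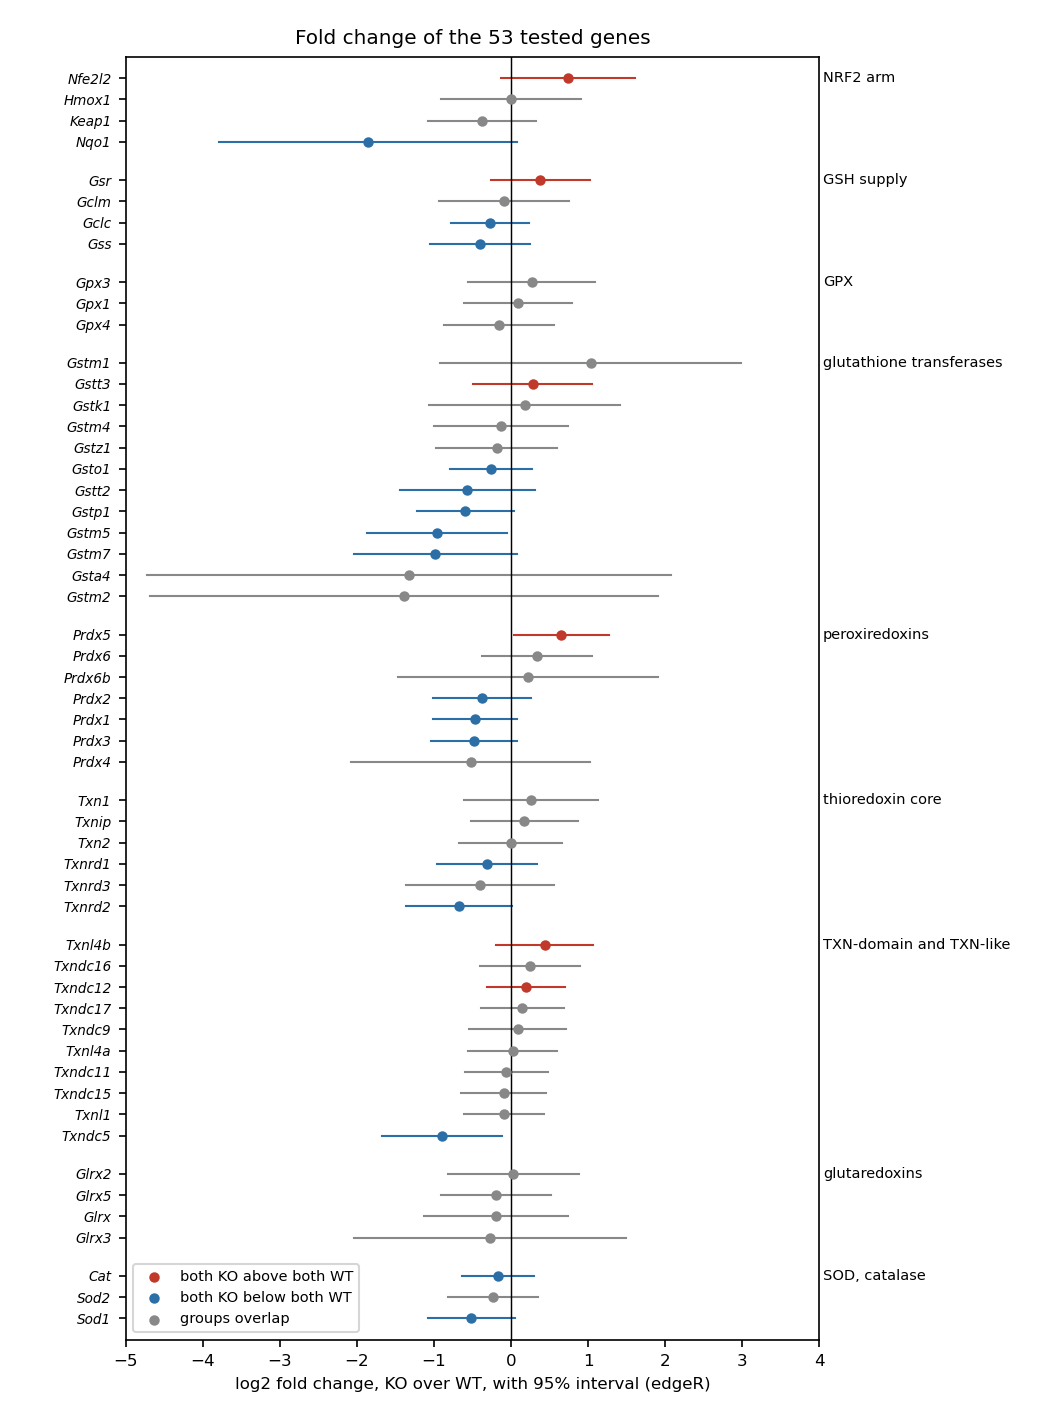
Log2 fold change of KO over WT for each tested member, with its 95% interval from edgeR, grouped by role and coloured by whether both KO libraries lay above, below or among the WT libraries. The intervals of 3 members, Txndc5, Gstm5 and Prdx5, lie on 1 side of 0 before adjustment for the 12623 genes tested, and 0 members passed after it.

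Genes that feed and assist these enzymes were examined in 5 lists outside the members, 76 tested genes in all, chosen with earlier results of these data known. By edgeR 0 of the 76 passed, with 12 at an unadjusted p under 0.05 (7.67% of all genes). DESeq2 fitted 81 of the listed genes and gave no adjusted p to Ggt7, Me1 and Akr1b8. It called 4, of which 3 rose and 1 fell (2.62% called among all genes with an adjusted p). Of the microsomal transferases and glutathione-dependent enzymes, 13 were tested, and DESeq2 called 3 as higher in KO and 0 as lower. Mgst2 (chromosome 3, 51636912 to 51682675), a microsomal glutathione transferase that can also make leukotriene C4, had 153 and 54.5 CPM in KO, against 7.30 and 11.7 CPM in WT. It rose by DESeq2 (adjusted p = 2.24e-07), with a log2 fold change of 3.45 by edgeR (SE 0.59, adjusted p = 0.444), and leaving out any 1 library kept the DESeq2 call (4 of 4 fits). Ptges, microsomal prostaglandin E synthase, had 25.3 and 21.8 CPM in KO, against 6.20 and 8.06 CPM in WT, and rose by DESeq2 (adjusted p = 9.53e-04). Mgst1, an abundant microsomal transferase and peroxidase, had 150 and 131 CPM in KO, against 56.8 and 74.9 CPM in WT. It rose by DESeq2 (adjusted p = 0.0135, log2 fold change 1.09 by edgeR, SE 0.23). With a library left out, DESeq2 kept the call of Mgst1 in 0 of 4 fits (adjusted p from 0.0504 to 0.848) and that of Ptges in 1, without WT replicate 2 (0.0455). The neutrophil markers summed higher in the same KO libraries, as given above, while Retnlg, Mmp8 and Mmp9 among them overlapped. The part of these markers in the values of Mgst2, Ptges and Mgst1 was not tested.

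Srxn1, sulfiredoxin, which restores peroxiredoxins whose active cysteine has been overoxidised, was the gene called as lower. It had 10.4 and 8.92 CPM in KO, against 22.7 and 26.9 CPM in WT (chromosome 2, 152105524 to 152111376). Both replicate pairs were close together and the groups were 2.57-fold apart, lower in KO (log2 fold change -1.36, SE 0.31, adjusted p = 0.444 by edgeR and 0.0120 by DESeq2). The fold change stayed between -1.48 and -1.22 with a library left out, while DESeq2 called it in 0 of 4 such fits (adjusted p from 0.175 to 0.641). Of the 11 tested genes of its list, 1 fell by DESeq2 and 0 rose. Msrb1, a methionine sulfoxide reductase, had 398 and 297 CPM in KO, against 263 and 244 CPM in WT, and Ccs, the copper chaperone of Sod1, had 14.4 and 18.1 CPM in KO, against 25.4 and 21.8 CPM in WT.

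In the other 3 lists 0 genes passed either test. Among 14 tested genes of cystine and glutathione supply and export, Abcc4, an efflux transporter, had 58.1 and 76.3 CPM in KO, against 38.4 and 36.0 CPM in WT. Chac1, which degrades glutathione, had 4.70 and 3.52 CPM in KO, against 0.900 and 0.902 CPM in WT (log2 fold change 2.18, SE 0.60, adjusted p = 0.463 by edgeR and 0.0786 by DESeq2). Cth, which makes cysteine from cystathionine, had 4.27 and 0.881 CPM in KO, against 0.1 and 0.531 CPM in WT. These came from only 69 and 15 counts in KO and 2 and 10 counts in WT. The log2 fold change of Cth was 3.01 (SE 1.19, edgeR adjusted p = 0.651). It ran from 1.47 without KO replicate 1 to 4.60 without WT replicate 2. Among 13 tested genes of NADPH supply, the mitochondrial folate gene Mthfd1l had 103 and 123 CPM in KO, against 181 and 156 CPM in WT. Mthfd1, its cytosolic relative, had 56.3 and 74.2 CPM in KO, against 104 and 82.9 CPM in WT, and the NAD kinase gene Nadk2 had 68.0 and 64.3 CPM in KO, against 38.1 and 49.9 CPM in WT. The last list held 25 tested genes put down as NRF2 partners, repressors or targets, which does not show that NRF2 acts on each of them. In that list, Trp53inp1 had 47.1 and 52.5 CPM in KO, against 27.3 and 31.2 CPM in WT. Blvrb, a biliverdin reductase, had 9.16 and 7.63 CPM in KO, against 17.1 and 16.6 CPM in WT, and the metallothionein Mt2 had 10.8 and 22.2 CPM in KO, against 7.35 and 7.75 CPM in WT.

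**Figure D4:**
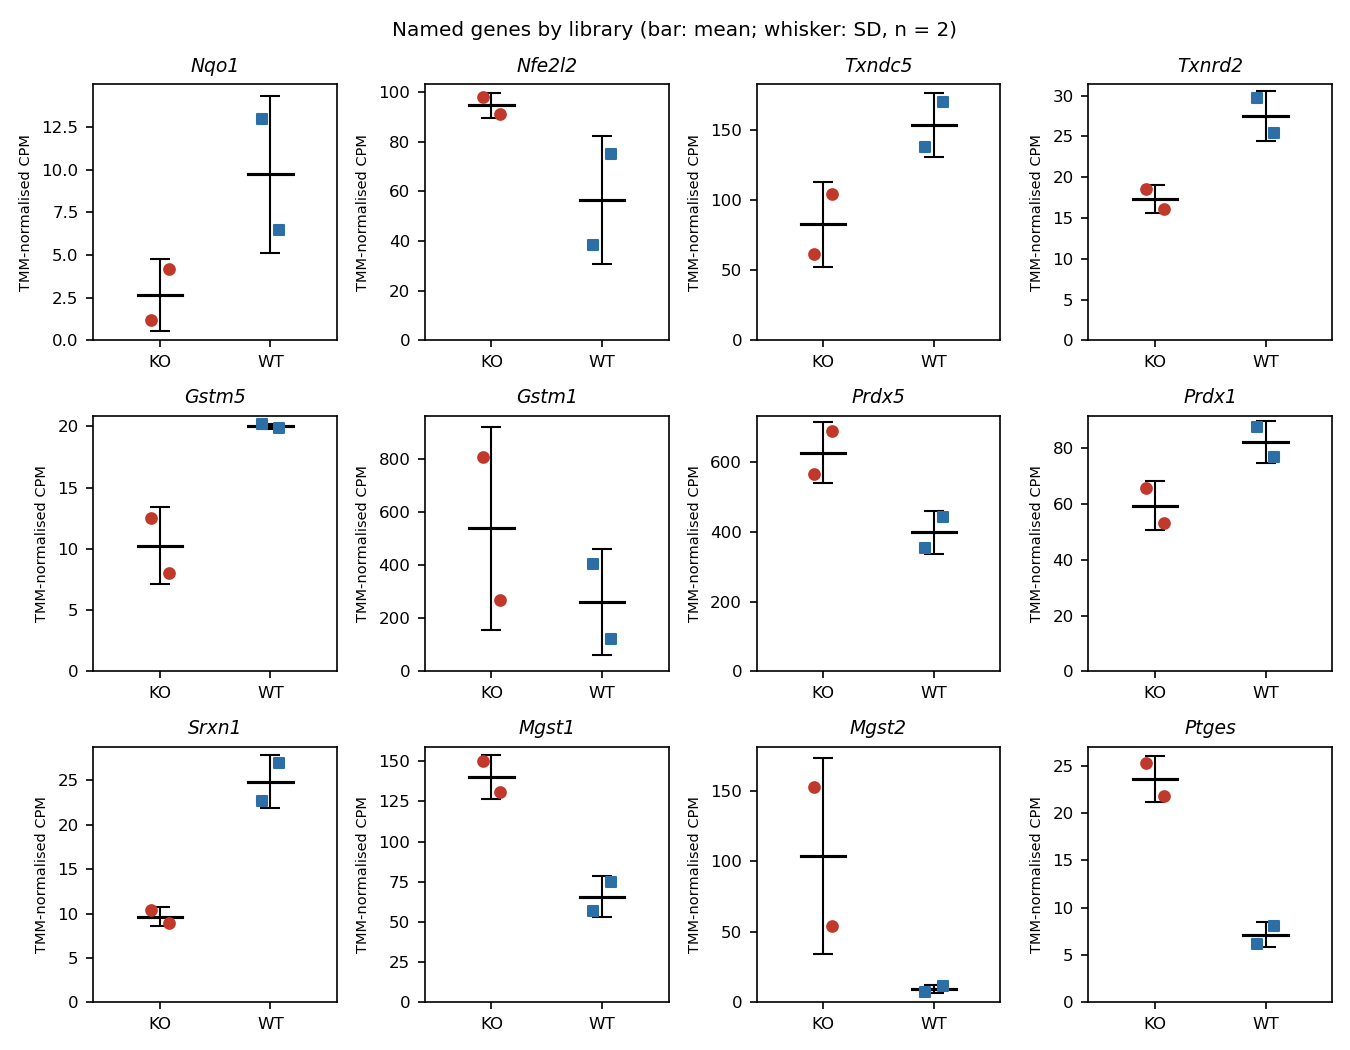
TMM-normalised CPM of 8 members and 4 assisting genes in each library, KO on the left and WT on the right of each panel, with the mean as a bar and the SD as a whisker (n = 2 per group), replicate 1 being the left point of each pair. Mgst2, Ptges and Mgst1 were higher and Srxn1 lower in both KO libraries, and Gstm1 shows the wide spread within each genotype.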

How the data were processed

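RNA-seq of 4 libraries was used; the 4 chromatin accessibility samples were not analysed here. The deposited files hold raw read counts per gene symbol. The submitters' processing notes name HTSeq, STAR 2.3.0, Picard, MACS2 and Bowtie2 2.2.5 and the build mm10, with no roles. The sources used here give neither the annotation nor the strand setting, so reads of overlapping or antisense genes may be mixed, and near-identical copies can lose reads. The 5 closing rows of reads not assigned to a single gene, 69.3% to 72.4% of all counts, were left out. The replicates were distinct libraries: chi-square over its degrees of freedom was 109 in KO and 80.5 in WT.

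Genes were kept by filterByExpr of edgeR 4.0.16 (R 4.3.3), scaled by TMM and tested with the robust quasi-likelihood F-test, KO over WT, with no covariate and Benjamini-Hochberg adjustment over all 12623 genes at 0.05. The SE is the log2 fold change over the root of F. DESeq2 1.42.0, limma 3.58.1 (voom), other scalings and filters, a replicate block and each library left out served as alternatives. The edgeR, DESeq2 and limma fits were checked on simulated counts. The members and lists were chosen with earlier results of these data known. Named genes were members called by either tool, the 20 tested members of smallest edgeR p, the 15 members of highest mean CPM, the 9 added by symbol, and, per assisting list, called genes and the 3 of smallest p. Other members are named for their role or for being undetected, and Gstm2 and Prdx4 after their values were seen. Coordinates and promoters come from RefSeq on GRCm38.p6, the assembly that mm10 names, where all 70 members matched.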

Additional observations from a re-analysis of the deposited data

How the results depend on the processing

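With 2 libraries per group, precision is limited by the spread between libraries more than by depth, and a p above the threshold does not show that a gene is unaltered. The count of members called was 0 under each of the 12 alternatives to the edgeR fit. DESeq2 with a library left out was added after the data were seen, and its calls are given above beside those over all genes. Over all genes the count was 4 with every gene with a count tested, 352 with DESeq2 and 11 with a replicate block, and ran from 0 to 156 over the 4 fits with a library left out, where the remaining library of the reduced group took its spread from the other genotype. The replicate numbers are only numbers in the titles. The differences between replicates 1 and 2 in KO and in WT correlated across genes at r = 0.19 (12623 genes, which are not independent) and at r = 0.32 over the 53 members, 34 of them with the same sign, and the replicate block called 0 members. The median log2 fold change of the members was -0.22 with library sizes alone as scaling and ran from -0.27 to -0.031 with a library left out. Members with both KO libraries below both WT libraries numbered 16 or 17 and those above 5 to 7 over the scalings, an alternative added after the data were seen. Of 31 named members, 23 kept the sign of their fold change in each of the 12 alternatives to the edgeR fit. The other 8 turned sign in at least 1 of them. Txn2 was 0.0074 with RLE scaling, 0.0053 with every gene tested, 0.0049 with DESeq2 and between -0.30 and 0.24 with a library left out. Hmox1 was -0.064 and Txnl4a -0.039 with library sizes alone, and with a library left out they ran from -0.24 to 0.31 and from -0.19 to 0.20. In those fits Gclm ran from -0.58 to 0.28, Gpx1 from -0.11 to 0.34, Gpx3 from -0.058 to 0.70, Txn1 from -0.29 to 0.66 and Txnip from -0.094 to 0.51. The cause was not tested.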
